A study of Homo sapiens with 12 samples.

Results

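The expression profile of untreated, differentiated Caco-2 cells was read from the 3 medium-control arrays among the 12 arrays of the series. Caco-2 is an established human colon carcinoma line. The control cells were at passage 22 and 21 days past confluence in 75 cm2 flasks. They had grown in DMEM with 10% heat-inactivated foetal calf serum, and spent the last 24 h in 20 mL of DMEM supplemented with 1% ITS (insulin, transferrin and selenium) and 1% penicillin and streptomycin. The other 9 arrays, which had the same passage, age, medium and exposure time, held cells given surfactant-coated silver nanoparticles (AgPURE) at 2.5 or 25 µg/mL or silver ions (AgNO3) at 0.5 µg/mL. Those arrays are used here only as a range beside some genes. The labels name no separate cultures, so the SD over the 3 medium arrays (replicates 1, 2 and 3) may be technical, and the small number of arrays limits its precision.

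Confluent Caco-2 cells are widely used as a model of the absorptive enterocyte. Such cells form tight junctions and an apical brush border, a lawn of actin-filled microvilli that carries digestive hydrolases and nutrient transporters. Enterocytes also package dietary lipid with apolipoproteins into chylomicrons and export drugs with ABC pumps. The parental tumour came from the colon, whose epithelium bears other markers, and the line is also known to make some plasma proteins that are typical of hepatocytes.

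Each gene was represented by 1 probe set, a group of short probes against the 3' end of a transcript: the probe set with exactly 1 gene symbol and the highest mean over the 12 arrays. This gave 19775 genes with log2 values between 2.71 and 14.64 and a median of 5.82. Values of different genes come from different probes, so ranks and percentiles (100 is the brightest gene) order array signals and not numbers of transcripts. The table has no detection calls. As a reference level, the 95th percentile of 102 olfactory receptor genes was taken, a family assumed here to be low in gut epithelium, and it lay at 5.39. The olfactory genes had a median of 4.03, and 6 of them lay above that level, the brightest at 7.95. Above the reference level lay 54.3% of all genes, or 10735, which is the background for every count below. The 82 olfactory genes that are not pseudogenes would give a lower level of 4.965, with 60.0% of all genes above it.

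**Figure D1:**
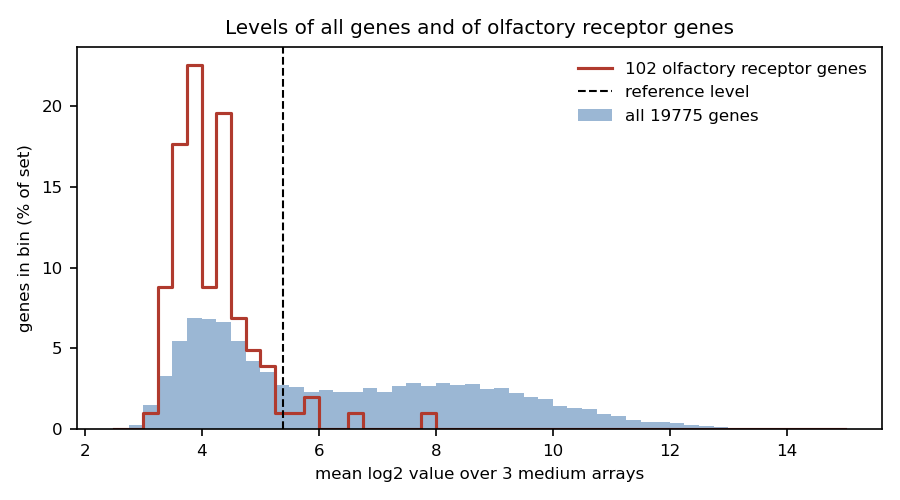
Share of genes (percent of each set, y axis) by mean log2 value over the 3 medium arrays (x axis), for all 19775 genes (filled) and for 102 olfactory receptor genes (line). The dashed line is the reference level of 5.39, and a reader should see that the olfactory genes crowd around 4.03 while the filled distribution has a long right side that reaches 14.64.

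A set of 684 genes in 32 lists was followed, of which 617 were measured and 326 lay above the reference level. Of these 326, 310 were above it on each of the 3 arrays. Among the 291 listed genes that were not above it, 269 were not above it on any of the other 9 arrays either. In 46 genes taken as defining for their lists, 43 were measured and 26 were above. A gene under the reference level is not shown to be silent, because its probe set may be a poor one. The material is bulk RNA, so few cells with much of a transcript and many cells with little of it cannot be told apart.

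**Figure D2:**
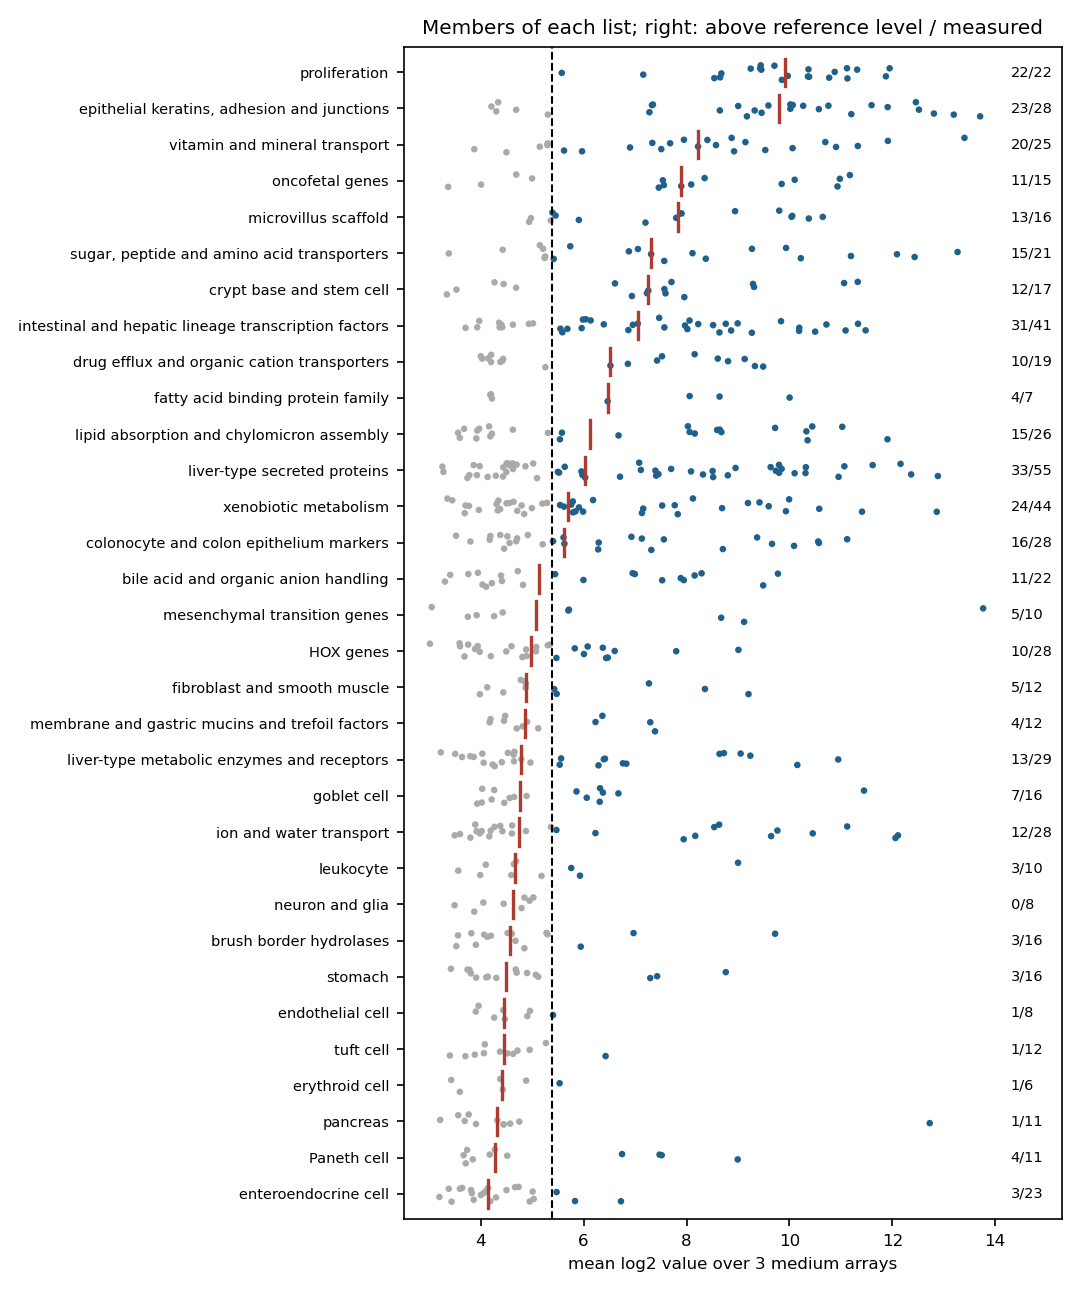
Mean log2 value over the 3 medium arrays (x axis) of every measured member of the lists (y axis, ordered by median). Blue points lie above the reference level (dashed line, 5.39) and grey points do not, red bars are list medians and the numbers at the right are members above the level over members measured. All 22 proliferation genes lie right of the line, against 3 of 16 brush border hydrolases.

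Gut epithelial genes on the lists were above the reference level only in part. Epithelial keratins, cadherin and junction genes and the microvillus protein villin were bright, whereas most digestive hydrolases of the enterocyte brush border, the colonocyte keratin KRT20 and the colonic anion exchanger SLC26A3 did not exceed the reference level. On the colon epithelium list as a whole, 16 of 28 genes were above the reference level (57.1%, against 54.3% of all genes). CDH17, CKB and CEACAM6 were among these. Genes of the cell cycle were bright as well. The series has no array of undifferentiated cells, so no value here says how far the cells had moved since confluence. Values for each group follow.

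The brush border hydrolases are the enzymes that finish digestion at the apical membrane. Of 16 measured, 3 were above the reference level, and the median percentile was 32.2. Sucrase-isomaltase (SI), the disaccharidase most often used as a mark of Caco-2 differentiation, had log2 values of 3.35, 3.60 and 3.72 on replicates 1, 2 and 3. All 3 values were within the range of the olfactory genes, at percentile 6.07 of all genes, and the highest value on the other 9 arrays was 3.62. Lactase (LCT) had 4.15, 3.98 and 4.07. The starch-digesting maltase-glucoamylase (MGAM) averaged 3.52, trehalase (TREH) 3.90 and the meprin subunit MEP1B 3.82. Aminopeptidase N (ANPEP), which is named here after its value was seen, had 4.26, 4.09 and 4.02. All of these genes were under the median of all genes.

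The 3 hydrolases above the level were peptidases and a phosphatase. Dipeptidyl peptidase 4 (DPP4), which trims dipeptides from proline-containing peptides, had 9.56, 9.74 and 9.86 (mean 9.72 ± 0.15, SD, n = 3) and stood at percentile 89.4. The glutamyl aminopeptidase ENPEP had 6.97, 6.96 and 6.98. Intestinal alkaline phosphatase (ALPI) had 6.02, 6.04 and 5.77. DPP4 was the brightest member of the list on each array, and ALPI exceeded the level by less than 1 log2 unit. NAALADL1 and the meprin subunit MEP1A, at 5.30 and 5.28, were just under the level.

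The proteins that build the microvillus gave another picture, with 13 of 16 above the reference level and a median percentile of 70.2. Villin (VIL1), which bundles the actin core, had 10.28, 10.45 and 10.40 and stood at percentile 93.6. Ezrin (EZR), which ties that core to the membrane, had 10.53, 10.71 and 10.71. The scaffold protein PDZK1, which holds transporters at the apical membrane, had 9.72, 9.94 and 10.51 (mean 10.05 ± 0.41, SD, n = 3). PDZK1 was higher on replicate 3 than on the others, whereas the arrays nearly coincided for VIL1 and EZR. Means of 10.04 for BAIAP2L1, 9.80 for the actin bundler PLS1, 8.94 for EPS8, 7.90 for MYO1D and 7.88 for NHERF1 were also above the level.

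Most members of the complex that links the tips of neighbouring microvilli were at or under the level. The protocadherin CDHR5 averaged 5.39, which equals the level at 2 decimals and was counted above it. Its partner CDHR2 averaged 4.94, the scaffold ANKS4B 4.97 and the motor MYO7B 5.36. USH1C (harmonin), another scaffold of that complex and named here after its value was seen, averaged 7.80 and was above the level. A level from olfactory genes without pseudogenes, 4.965, was chosen after seeing the data. With it, 15 of the 16 microvillus genes were above, all except CDHR2.

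Genes of lipid absorption were above the level in 15 of 26 cases, with a median percentile of 52.9. That share, 57.7%, was near the 54.3% of all genes. Apolipoprotein A1 (APOA1), the main protein of high-density lipoprotein, had 11.51, 11.91 and 12.29 (mean 11.91 ± 0.39, SD, n = 3). It was among the brightest 2% of genes, at percentile 98.5, and was highest on replicate 3. Apolipoprotein B (APOB), the backbone of chylomicrons, had 10.92, 11.10 and 11.07. APOC3, which slows the clearance of such particles, had 10.11, 10.39 and 10.83. SAR1B, needed to carry chylomicrons out of the endoplasmic reticulum, averaged 10.35, and the lipid droplet coat PLIN2 averaged 10.33. DGAT2 and DGAT1, the enzymes of the last step of triglyceride synthesis, averaged 9.72 and 8.65.

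The lower members of the list included MTTP, which loads lipid onto apolipoprotein B, with 3.51, 3.42 and 3.75. That placed MTTP at percentile 6.10, although its partner in the pathway, APOB, stood at 96.5. The sterol exporters ABCG5 and ABCG8, which work as a pair, averaged 3.59 and 3.68, and the retinol-esterifying enzyme LRAT 3.91. APOA4, an intestinal apolipoprotein, had 5.52, 5.54 and 5.68 and was just above the level. The values of MTTP, ABCG5 and ABCG8 on the other 9 arrays reached no more than 3.76, 3.68 and 3.98.

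Fatty acid binding proteins carry lipids inside cells, and members of the family are used to tell gut segments and organs apart. The liver-type FABP1 had 8.02, 7.91 and 8.25, at percentile 72.6. The intestinal FABP2 had 3.90, 4.40 and 4.25 and the ileal bile acid binding FABP6 had 4.11, 4.26 and 4.28, so neither exceeded the reference level on any medium array. Elsewhere in the family, the epidermal FABP5 averaged 10.00, the heart-type FABP3 8.64, the brain-type FABP7 6.47 and the adipocyte FABP4 4.20. In all, 4 of 7 members were above the level.

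Transporters of sugars, peptides and amino acids were above the level in 15 of 21 cases, with a median percentile of 64.3. The glucose carrier SLC2A3 had 13.24, 13.23 and 13.35 and ranked 64 among all genes. SLC2A1, the glucose carrier found in most proliferating cells, had 10.38, 10.30 and 9.99. The apical sodium-glucose cotransporter SLC5A1, which takes up dietary glucose, had 4.36, 4.44 and 4.48 and was not above the level. SLC2A3 and SLC2A1 were therefore bright while the cotransporter of the brush border was not. The fructose carrier SLC2A5 had 5.65, 5.11 and 5.50, which straddled the level so that its mean was not above it without replicate 1, and the peptide carrier SLC15A1 had 5.47, 5.98 and 5.77, a little above it.

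Among amino acid carriers, SLC7A7, the basolateral light chain for cationic amino acids, had 12.45, 12.51 and 12.34. Its heavy chain SLC3A2 averaged 11.20, and SLC7A5 and SLC7A8, other light chains of that heavy chain, averaged 9.94 and 8.38. SLC38A2 averaged 12.09 and the glutamate carrier SLC1A1 9.27. The apical carriers of neutral amino acids SLC6A19, SLC6A20 and SLC6A14 averaged 5.15, 5.21 and 3.38. The heavy chain and its light chains were thus above the level, and the SLC6 carriers on the list were not.

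Vitamin and mineral transport had 20 of 25 members above the level and a median percentile of 74.5. The transferrin receptor TFRC, which brings iron in from the blood side, had 13.46, 13.34 and 13.41 and ranked 59. The iron exporter SLC40A1 (ferroportin) averaged 11.92 ± 0.08 (SD, n = 3), and the apical iron importer SLC11A2 had 10.85, 10.88 and 10.99. All 3 iron carriers varied by little between arrays. CYBRD1, the ferric reductase of the duodenal brush border, had 5.03, 5.54 and 4.87. The zinc exporter SLC30A1 averaged 10.70, the phosphate carrier SLC20A1 11.33, the thiamine carrier SLC19A2 10.06, the calcium pump ATP2B1 9.53 and the copper importer SLC31A1 9.14. The apical calcium channel TRPV6 averaged 5.30 and its cytosolic calcium binder S100G 3.87. The cobalamin receptor subunit CUBN averaged 4.50.

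For ion and water transport the count was 12 of 28, with a median percentile of 35.9. The sodium pump subunits ATP1B3 and ATP1B1 averaged 12.11 and 12.06. The sulphate carrier SLC26A2 averaged 11.12, the potassium channel subunit KCNE3 10.45 and the basolateral chloride loader SLC12A2 9.77. The chloride channel CFTR had 8.36, 8.65 and 8.61. The water channel AQP3 averaged 9.64 and AQP1 3.89. SLC26A3, the chloride-bicarbonate exchanger of the colonic surface, had 3.67, 4.02 and 3.71, and the highest value on the other 9 arrays was 4.64. In the sodium channel, subunit SCNN1A averaged 8.63 and subunit SCNN1B 3.60. CFTR, SLC12A2 and KCNE3, which serve chloride secretion, were therefore above the level, and SLC26A3 was not.

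Bile acid and organic anion genes were above the level in 11 of 22 cases. The apical ileal bile acid importer SLC10A2 had 4.33, 3.93 and 4.05. The hepatocyte importer SLC10A1, which takes bile acids from the blood, had 7.39, 7.53 and 7.66. The ileal carrier was thus under the level and the hepatic one above it on every medium array. The basolateral bile acid carrier subunit SLC51A averaged 3.41. CYP7A1, the rate-limiting enzyme of bile acid synthesis, averaged 3.30 and CYP8B1 3.76, while the mitochondrial sterol hydroxylase CYP27A1 was above the level, with 6.89, 7.11 and 6.99. The receptor FGFR4 and its co-receptor KLB, which sense the gut hormone FGF19, averaged 7.95 and 7.89. The uptake carriers SLCO2B1 and SLCO4A1 averaged 9.78 and 8.29.

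Of the drug efflux and organic cation carriers, 10 of 19 were above the level, with a median percentile of 56.6. P-glycoprotein (ABCB1) had 8.97, 9.47 and 9.54 (mean 9.33 ± 0.31, SD, n = 3). The breast cancer resistance protein gene ABCG2 had 7.62, 7.58 and 7.37. The multidrug resistance proteins ABCC2, ABCC4, ABCC5, ABCC1 and ABCC3 averaged 9.49, 9.13, 8.81, 8.61 and 8.16. All 7 of these pumps were above the level on every medium array, and replicate 1 was the lowest array for ABCB1. The phospholipid exporter ABCB4 averaged 4.03, and the nucleoside carrier SLC28A1 4.14.

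Drug-metabolising enzymes were above the level in 24 of 44 cases, a share of 54.5% that is close to the background. The carboxylesterase CES1, the liver form, had 11.23, 11.49 and 11.52. The intestinal form CES2 had 8.75, 8.79 and 8.53. CYP3A4, the main drug-oxidising enzyme of the small intestine, had 6.36, 5.95 and 6.24, at percentile 53.5. CYP1A1, a target of the aryl hydrocarbon receptor, averaged 9.42. Both esterases were thus well above the level and CYP3A4 only a little. The glutathione transferases GSTP1, GSTA1 and GSTA4 averaged 12.87, 9.99 and 9.93, ALDH1A1 10.58 and the sulphotransferase SULT1A1 9.19. The glucuronosyltransferases UGT1A1 and UGT2B17 averaged 3.69 and 3.35, and the xenobiotic receptor NR1I3 3.70.

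Genes of proteins that the liver secretes into plasma included some of the brightest listed genes. Of 55 measured, 33 were above the level and 12 stood in the top 10% of all genes, while the median percentile was 52.0. Fetuin A (AHSG) had 12.83, 12.77 and 13.06 and ranked 94. The apolipoproteins APOE and APOA2 averaged 12.37 and 12.16, APOH 11.62, the retinol carrier RBP4 11.07 and the protease inhibitor SERPINA1 10.96. The acute-phase protein ORM1 averaged 10.32 and the thyroxine carrier TTR 10.31. The list was divided, since the clotting factors F9 and F13B averaged 3.25 and 3.27, the C-reactive protein gene CRP 3.78 and the complement factor CFI 3.74.

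Albumin (ALB), the most abundant plasma protein, had 9.41, 9.94 and 10.96 on replicates 1, 2 and 3 (mean 10.10 ± 0.79, SD, n = 3). Alpha-fetoprotein (AFP), its fetal relative, had 9.26, 9.67 and 10.62 (mean 9.85 ± 0.70, SD, n = 3). Both genes were highest on replicate 3, by 1.55 and 1.37 on the log2 scale over replicate 1, and they were the only listed genes above the level that spanned more than 1 log2 unit over the 3 medium arrays. For ALB the percentile on a single array ran from 87.0 to 96.1, and for AFP from 85.7 to 94.8.

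ALB and AFP are neighbours on chromosome 4 and are read in the same direction, with 31934 bases between their starts in RefSeq on GRCh38.p14. The 250 bases before each start are shown for ALB and AFP, the listed genes above the level with the widest spread, both highest on replicate 3. A link between these bases and that spread was not tested. Capitals mark TATAAA, the core letters of the TATA box that places the start of transcription, searched on both strands. The window shown for ALB is chr4:73404037-73404286 and that for AFP is chr4:73435971-73436220, both on the + strand.
ALB: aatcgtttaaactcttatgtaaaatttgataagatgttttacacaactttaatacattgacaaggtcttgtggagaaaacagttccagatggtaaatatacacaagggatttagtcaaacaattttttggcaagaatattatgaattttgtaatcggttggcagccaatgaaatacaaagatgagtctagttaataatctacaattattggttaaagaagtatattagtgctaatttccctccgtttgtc
AFP: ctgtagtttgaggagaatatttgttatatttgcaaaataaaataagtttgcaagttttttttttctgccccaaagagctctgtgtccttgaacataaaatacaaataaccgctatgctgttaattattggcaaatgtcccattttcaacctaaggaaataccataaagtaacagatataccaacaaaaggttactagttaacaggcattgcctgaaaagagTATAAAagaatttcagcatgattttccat

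In the AFP window TATAAA was found once, beginning 29 bases before the start, and in the ALB window these letters were not found. TATAAA was found before a start of 9 of 46 liver-type secreted genes with a promoter in the table (19.6%) and 4 of 13 brush border hydrolases (30.8%). For lipid absorption genes it was 7 of 18 (38.9%), and 10.9% of all 15384 genes with a value and a promoter. Other letters searched included CAAAGTCCA, a form of the HNF4 site, and TTTATNA, a form of the CDX site, which TATAAA may overlap. CAAAGTCCA was found for 1 of 46 secreted genes (2.17%), 1 of 13 hydrolases (7.69%), 1 of 18 lipid absorption genes (5.56%) and 65 of all 15384 genes (0.423%). Each list share of CAAAGTCCA thus rests on 1 gene. For TTTATNA the counts were 9 of 46 secreted genes (19.6%), 4 of 13 hydrolases (30.8%), 5 of 18 lipid absorption genes (27.8%) and 1595 of 15384 (10.4%). A match is a run of letters and not a measured site.

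**Figure D3:**
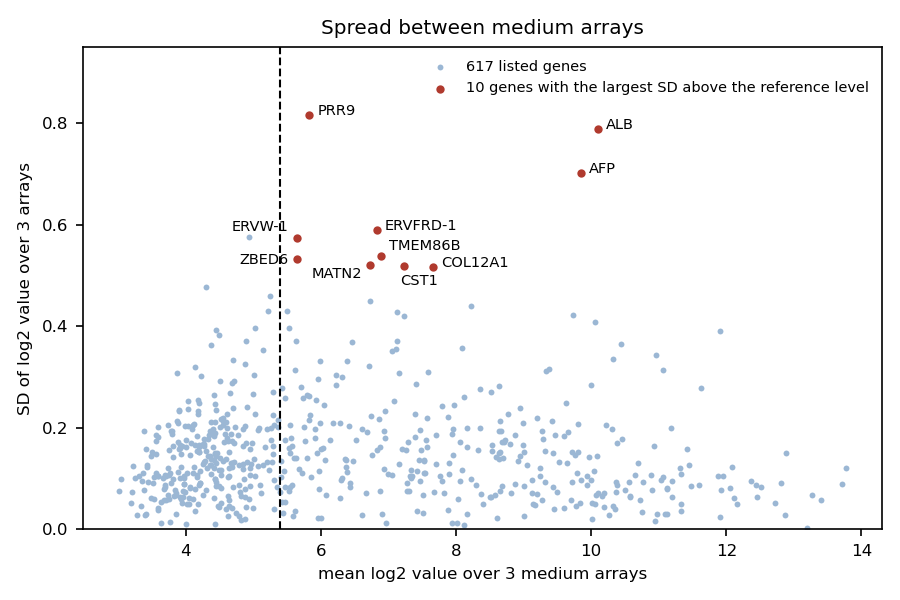
SD over the 3 medium arrays (y axis, log2 units) against mean log2 value (x axis) for the 617 listed genes (blue) and for the 10 genes with the largest SD among all genes above the reference level (red, named; dashed line, 5.39). ALB and AFP, at SDs of 0.79 and 0.70, are the only red points with a mean above 8.

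Replicate 3 was the brightest array for 23 of the 33 secreted protein genes above the level, and for 19 of 22 proliferation genes. Lists differed: it was the brightest for 9 of 15 lipid absorption genes, 4 of 23 junction genes and 1 of 12 crypt base genes above the level. Among all listed genes above the level it was the brightest for 43.9%. Over all genes above the level it was the brightest for 32.4%, against 47.1% for replicate 2 and 20.6% for replicate 1. The secreted genes were a median of 0.22 log2 units higher on replicate 3 than on the mean of the others, the proliferation genes 0.14 higher and all genes above the level -0.01. The reference level computed on single arrays was 5.16, 5.33 and 5.49, also highest on replicate 3, and its part in the difference was not tested. Among genes above the level, those with the largest SD outside the lists were PRR9 (5.14, 5.61 and 6.73), the endogenous retroviral envelope genes ERVFRD-1 (6.46, 6.51 and 7.51) and ERVW-1 (5.27, 5.35 and 6.30), and TMEM86B (6.35, 6.90 and 7.42). These were also highest on replicate 3, as was ZBED6, whereas MATN2, CST1 and COL12A1 were highest on replicate 2.

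Liver-type metabolic enzymes and receptors were above the level in 13 of 29 cases, with a median percentile of 37.0. The urea cycle enzymes ASS1 and ASL averaged 10.95 and 9.05. The mitochondrial form of phosphoenolpyruvate carboxykinase, PCK2, averaged 10.15, and the cytosolic form PCK1 of gluconeogenesis 3.79. The asialoglycoprotein receptor subunit ASGR1, a hepatocyte surface marker, had 6.65, 6.71 and 6.93 and its partner ASGR2 had 8.44, 8.52 and 8.96. Both receptor subunits were above the level on every array. The liver glycogen synthase GYS2 averaged 3.22, the tyrosine pathway enzyme HPD 3.50 and the glycine methyltransferase GNMT 3.63. The shares above the level, 60.0% for the secreted protein list and 44.8% for this list, lay near the background of 54.3%, and their difference was not tested.

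Colon epithelium markers were above the level in 16 of 28 cases, with a median percentile of 48.0. The intestinal cadherin CDH17 had 10.51, 10.64 and 10.58. Creatine kinase B (CKB) averaged 10.56, the adhesion molecule CEACAM6 10.09, the prostaglandin-degrading enzyme HPGD 9.66 and TSPAN8 9.37. CEACAM5, the carcinoembryonic antigen, had 7.73, 7.56 and 7.38. CA2 (7.13), CEACAM1 (6.93) and CA12 (6.29), which are named after their values were seen, were also above the level on every array. Other members lay under it. Carbonic anhydrase 1 (CA1) had 4.93, 4.77 and 5.04, the keratin KRT20 had 4.65, 4.69 and 4.73, and the surface protein MS4A12 averaged 3.52. None of these was above the level on a medium array, and CA1 reached 5.60 on another array of the series.

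**Figure D4:**
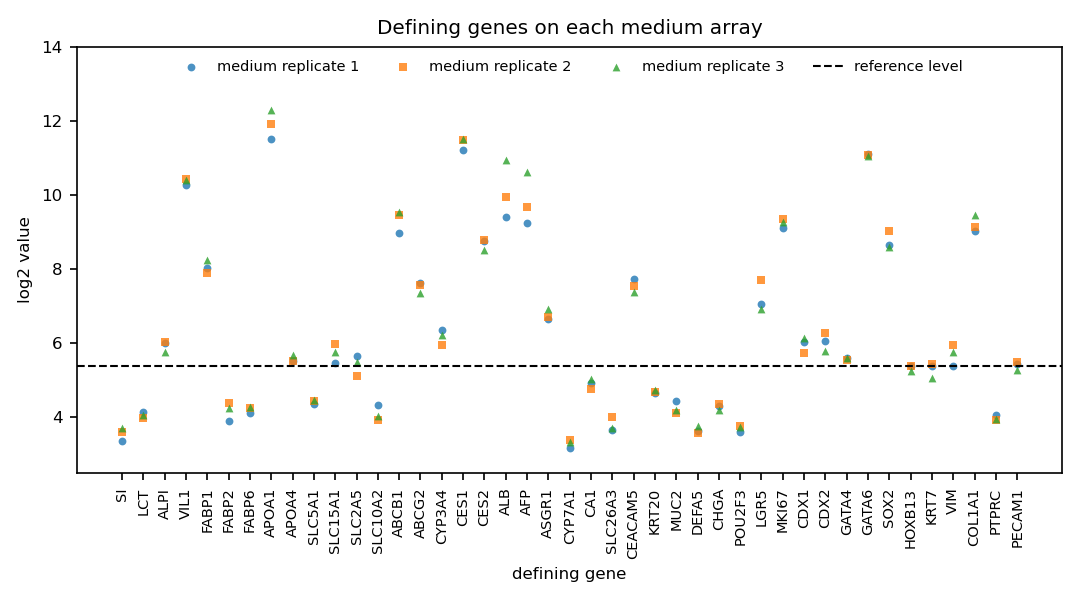
Log2 value (y axis) of 43 defining genes (x axis) on each of the 3 medium arrays (symbols), with the reference level of 5.39 as a dashed line. The 3 arrays nearly coincide for most genes and are widest apart for ALB and AFP; SI, LCT, FABP2, SLC5A1, KRT20 and SLC26A3 lie under the line.

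Markers of the other epithelial cells of the gut were above the level in shares that differed between lists, beside 54.3% of all genes. Of 16 goblet cell genes 7 were above it (43.75%, near that background). They were led by the protein disulphide isomerase AGR2 at 11.57, 11.47 and 11.32. The secreted gel mucin MUC2 had 4.45, 4.13 and 4.20, and ATOH1, the factor that sets the secretory lineage, averaged 3.93. The goblet peptide TFF3 had 6.03, 6.30 and 6.63. Of 12 membrane and gastric mucins and trefoil factors, 4 were above (33.3%): MUC13 (7.39), TFF1 (7.29), MUC1 (6.36) and MUC3A (6.23). The membrane mucins MUC17 and MUC12 averaged 4.19 and 4.17.

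The Paneth cell defensins DEFA5 and DEFA6, antimicrobial peptides of the small intestinal crypt, averaged 3.67 and 4.51. Lysozyme (LYZ) had 8.95, 9.22 and 8.81, and 4 of 11 genes of that list were above the level (36.4%). The count was still 4 with the 99th percentile of olfactory genes, 6.68, as the level. Enteroendocrine genes were above it in 3 of 23 cases, SCGN (6.73), CHGB (5.83) and GIP (5.47), and the granule protein CHGA averaged 4.30 and the lineage factor NEUROG3 3.59. Tuft cell genes were above that level in 1 of 12 cases (8.33%), the actin binder AVIL at 6.43. The lineage factor POU2F3 averaged 3.70 and the channel TRPM5 3.40. The lineage factors ATOH1, NEUROG3 and POU2F3 were thus all under the median of the olfactory genes.

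Crypt base genes were above the level in 12 of 17 cases, with a median percentile of 63.8. LGR5, the receptor that marks intestinal stem cells, had 7.06, 7.71 and 6.92 (mean 7.23 ± 0.42, SD, n = 3). The Wnt target AXIN2 averaged 9.29, the Wnt receptor ligases RNF43 and ZNRF3 7.71 and 7.59, and SOX9 7.57. PROM1 (CD133) averaged 11.33 and PTPRO 11.06. OLFM4, another stem cell marker of the human gut, averaged 3.34, MSI1 3.53 and HOPX 4.27. The Wnt feedback genes named here were therefore above the level, and OLFM4 was not.

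All 22 proliferation genes were above the reference level, with a median percentile of 90.9. With the dimmest probe set of each gene and a level taken from those, 15 of 22 were above. The Ki-67 gene MKI67 had 9.12, 9.35 and 9.27. The cyclin-dependent kinase CDK1 had 11.90, 11.88 and 12.07, the ubiquitin-conjugating enzyme UBE2C averaged 11.88 ± 0.10 (SD, n = 3), and the topoisomerase TOP2A had 11.05, 11.10 and 11.21. CDK1 ranked 286 of 19775 genes. AURKA averaged 11.32, TYMS 11.13, PCNA 10.88 and CCNB1 10.77. The lowest was the mitotic kinase PLK1 at 5.57, which was represented by 1 probe set.

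Transcription factors of the gut and liver lineages were above the level in 31 of 41 cases, with a median percentile of 61.9. GATA6 had 11.12, 11.09 and 11.06, while GATA4, the factor of the proximal small intestine, had 5.60, 5.55 and 5.60. The caudal factors of intestinal identity, CDX1 and CDX2, had 6.05, 5.75 and 6.15 and 6.07, 6.27 and 5.79, a little above the level on every array. CEBPB averaged 11.48, SOX4 11.33, the Wnt effector TCF7L2 10.72, the splicing regulator ESRP1 10.50, KLF5 10.19 and the Notch target HES1 9.84. SOX2, a factor of the foregut, had 8.66, 9.02 and 8.61. The hepatic factor ONECUT1 averaged 4.36 and CREB3L3, which controls apolipoprotein genes, 3.97. HNF4A, a factor tied to both enterocyte and hepatocyte genes, had no probe set with exactly 1 symbol and was not measured.

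HOX genes record position along the gut, and 10 of the 28 measured were above the level. HOXC6 had 9.04, 8.91 and 9.07, HOXB7 averaged 7.80 and HOXC13 6.60. HOXC5, HOXB4, HOXC11, HOXC4 and HOXC10 averaged 6.47, 6.44, 6.37, 6.08 and 6.01. The hindgut gene HOXB13 had 5.40, 5.39 and 5.25, and its mean was above the level without replicate 2 or without replicate 3. The posterior genes HOXD13, HOXD10 and HOXD12 averaged 3.60, 3.59 and 3.01. The HOXC and HOXB genes thus made up the 8 brightest. Of the 39 HOX genes, 11 had no probe set with exactly 1 symbol, 10 of them of the HOXA cluster.

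Epithelial keratins, adhesion molecules and junction genes had a median percentile of 89.96, and 23 of 28 were above the level. KRT18 had 13.73, 13.78 and 13.61 and ranked 44. EPCAM had 13.20, 13.19 and 13.20, ranked 66, and varied least among the genes of this list. KRT19 averaged 12.81, KRT8 12.52, E-cadherin (CDH1) 12.46, desmoplakin (DSP) 11.91, occludin (OCLN) 11.60 and TJP1 11.20. Of the 5 members not above the level, the leak-forming claudin CLDN2 averaged 4.34, the gastric claudin CLDN18 4.30 and KRT7, a keratin usually low in colon, had 5.39, 5.45 and 5.07. The mean of KRT7 was above the level without replicate 3.

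Among 10 genes of mesenchymal transition, 5 were above the level. Fibronectin (FN1) had 13.89, 13.75 and 13.65 and ranked 42, the brightest gene of all lists. Vimentin (VIM) had 5.40, 5.95 and 5.76. The factors SNAI2, ZEB1, ZEB2 and TWIST1, which repress E-cadherin, averaged 3.75, 3.92, 4.26 and 3.05, and N-cadherin (CDH2) averaged 4.43. SPARC and S100A4 were also above the level. FN1 therefore stood far above the level while the factors of that list other than SNAI1, at 5.71, did not exceed it.

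Oncofetal genes, active in the embryo and in tumours, were above the level in 11 of 15 cases, with a median percentile of 70.9. The cell surface proteoglycan GPC3 had 11.01, 11.13 and 11.40. The mRNA-binding proteins IGF2BP3, IGF2BP2 and IGF2BP1 averaged 10.98, 10.10 and 8.35, PEG10 10.94, HMGA2 8.09 and LIN28B 7.90. LIN28A had 4.69, 4.98 and 4.40 in medium, and reached 7.15 on another array. DLK1 and PEG3 averaged 4.01 and 3.36. Among 16 stomach genes, 3 were above, SOX2, the pepsinogen PGC (7.43) and TFF1, and the gastrokines GKN1 and GKN2 averaged 3.42 and 3.74. Of 11 pancreas genes, 1 was above, the trypsin inhibitor SPINK1, with 12.67, 12.77 and 12.75 at rank 110, whereas the digestive enzymes PNLIP, CPA1 and CPB1 averaged 3.91, 3.56 and 3.76.

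Markers of cells outside the epithelium were read as well. In bulk RNA, transcripts made by the line itself and those of other cells cannot be told apart, so purity was not tested. The pan-leukocyte gene PTPRC had 4.07, 3.93 and 3.96, and 3 of 10 leukocyte genes were above the level: LCP1 (8.98 on its lowest array), CD14 (mean 5.93) and CD79A (mean 5.76). PECAM1, at 5.44, 5.48 and 5.29, was the only one of 8 endothelial genes above it, though not without replicate 1, and VWF and CDH5 averaged 4.96 and 3.90. None of 8 neural and glial genes was above it, and 1 of 6 erythroid genes was, HBB at 5.53. Of 12 fibroblast and smooth muscle genes 5 were above, with COL1A1 at 9.03, 9.13 and 9.45, PDGFRA at 8.17, 8.68 and 8.23 and COL3A1 at 7.35, 7.29 and 7.17. The other chain of type I collagen, COL1A2, averaged 4.13, and DCN, FAP and THY1 averaged 4.44, 3.98 and 4.87. The shares of these 5 lists above the level, from 0% to 41.7%, were all under the background. The same held for some epithelial lists, such as the brush border hydrolases at 18.75%.

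The brightest genes of the profile as a whole belonged to protein synthesis. Of the 25 brightest genes, 20 encoded ribosomal proteins, led by RPL41 at 14.64, and 3 were read from the mitochondrial genome: COX1 (14.45), ND4 (14.34) and COX2 (14.07). The other two were the elongation factor EEF1A1 (14.53) and TPT1 (14.47). Among the 100 brightest, 46 encoded ribosomal proteins, 5 were mitochondrial and 7 stood on the lists: FN1, KRT18, TFRC, SLC2A3, EPCAM, AHSG and GSTP1. Ribosomal protein genes have many near-identical pseudogenes, and 7 of the 25 probe sets have the suffix by which the manufacturer marks probes that may match other transcripts. Among the 326 listed genes above the level, 26 rest on such a probe set, APOA1 and KRT18 included.

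The 3 arrays were close to each other. Across genes, which are not independent replicates, Pearson's r between pairs of arrays was 0.996 or 0.997. The median SD per gene was 0.11 log2 units over all genes and 0.09 over genes above the level, and 95% of genes had an SD of at most 0.26. No pair of arrays held identical values.

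The choice of probe set moved many of these levels. Of the 343 listed genes with several probe sets, 210 were above the level, and for 132 of these the lowest probe set was at or under it. For ALB the brightest probe set averaged 10.10 and the dimmest 3.92, and for APOA1 these were 11.91 and 4.65. GATA6 ran from 11.09 to 4.62, SOX2 from 8.76 to 3.91 and COL1A1 from 9.20 to 4.09. For SLC26A3 both probe sets were under the level, at 3.80 and 3.60, whereas SI and MTTP had 1 probe set each.

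**Figure D5:**
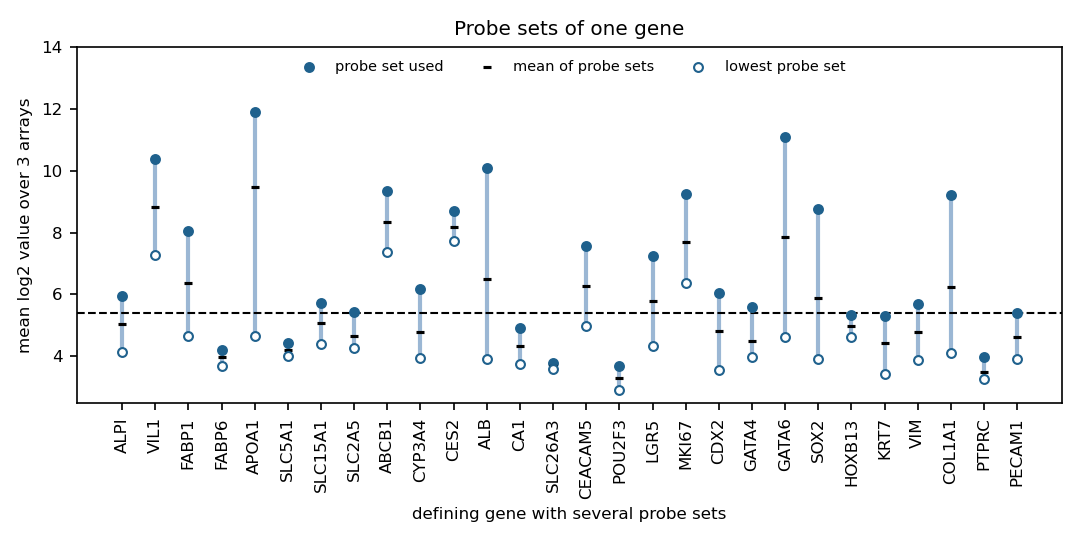
Mean log2 value over the 3 medium arrays (y axis) of the brightest probe set used (filled), the mean of all probe sets (bar) and the dimmest probe set (open) for defining genes with several probe sets (x axis). The dashed line is the reference level of 5.39. ALB, APOA1 and GATA6 have an open circle under the line and a filled one far above it, while both circles of VIL1 and MKI67 are above.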

How the data were processed

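Biotinylated cRNA from total RNA was hybridised to 3' expression arrays, and the 3 medium-control arrays are described here. The authors deposited log2 expression values per probe set. RMA and Partek were used, per the submitters' processing notes, and no version or setting is known. RMA normally equalises the distributions of arrays, so amounts of RNA per cell do not show. Of 54675 probe sets, 41097 carried 1 gene symbol in the platform annotation, 1801 several and 11721 none, apart from controls. There were 62 controls, of which 6 (for ACTB and GAPDH) are among those with 1 symbol. Gene IDs led to current symbols for 41043 probe sets, and 54 kept the older one. Of the 19775 genes, 10523 had several probe sets.

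Means, SDs, ranks and percentiles over the 3 medium arrays were computed with Python 3.11.15, numpy 2.4.6 and pandas 2.3.3, tested on simulated data, and drawn with matplotlib 3.10.9. No test was run, since levels and ranks are described. The median log2 values of the columns were 4.75, 4.72 and 4.74. Genes named are the 25 brightest, the 10 with the largest SD above the reference level, in each list up to 8 highest and 4 lowest members, and 46 defining genes; any other is said to be chosen later. The members and lists were chosen with earlier results of these data known. Promoters are those of RefSeq on GRCh38.p14, matched by symbol for 15384 genes, with only the 250 bases before a start searched. Protein sequences were not used here. Some genes and a motif of the plan are not reported here. Alternatives were other probe sets, normalizations, reference levels and leaving out each array.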

Additional observations from a re-analysis of the deposited data

How the results depend on the processing

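No paired analysis was possible because the titles give the arrays letters and no shared replicate numbers, and no result comes from a test. The table has no counts, so depth sets no limit, while dim probe sets near the reference level have no detection call and their order carries little. The total of 10735 genes above the level (54.3%) was within 1.5 times under every alternative run except the dimmest probe set of each gene. That probe set gave 6862, or 34.7% of all genes. The share of all genes changed with each setting, so each list count below is to be read beside it. Lists are named here where the count changed by more than 1.5 times, or to or from 0. Each count is out of the measured members given above. With the dimmest probe set the list counts were 15 for lineage transcription factors, 13 for vitamin and mineral transport, 8 for lipid absorption and 5 for oncofetal genes. They were 4 for crypt base, 2 for mucins, 2 for fatty acid binding proteins and 0 for fibroblast, endothelial and erythroid genes. Smaller falls gave 15 of 22 proliferation, 18 of 28 junction, 9 of 16 microvillus and 26 of 55 secreted protein genes. Brush border hydrolases stayed at 3 of 16, and no list count rose. Averaging the probe sets (50.1% of all genes above) gave 3 fibroblast, 0 endothelial and 0 erythroid genes. With the 99th percentile of olfactory genes, 41.9% of all genes were above. The counts then were 15 for xenobiotic metabolism, 8 for liver-type enzymes, 3 for fibroblast and 3 for mesenchymal transition genes. They were 2 for HOX, 2 for mucins, 1 for goblet, 1 for enteroendocrine, 1 for leukocyte and 0 for tuft, endothelial and erythroid genes. Keratin-associated and cornified envelope genes as reference gave 3 fibroblast, 3 mesenchymal transition, 1 enteroendocrine, 0 endothelial and 0 erythroid genes, and the median of all genes gave 3 fibroblast, 3 mesenchymal transition, 0 endothelial and 0 erythroid genes. A level set on each array (52.7% of all genes above) gave 3 fibroblast and 0 endothelial genes. Olfactory genes without pseudogenes (60.0% of all genes above), chosen after seeing the data, gave 5 brush border, 5 enteroendocrine, 5 stomach, 2 tuft and 1 neural gene. Leaving out 1 array gave between 0 and 1 endothelial genes (0 without replicate 1) and between 1 and 2 tuft genes (2 without replicate 2). Of the 43 defining genes measured, averaging the probe sets put ALPI, SLC15A1, SLC2A5, CYP3A4, CDX2, GATA4, VIM and PECAM1 under the level. The dimmest probe set put these 8 and also FABP1, APOA1, ALB, CEACAM5, LGR5, GATA6, SOX2 and COL1A1 under it. The 99th percentile of olfactory genes put the first 8 and also APOA4 and CDX1 under it, and the keratin-associated reference and the median of all genes each put APOA4, SLC15A1, SLC2A5, GATA4, VIM and PECAM1 under it. The cause was not tested.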

Other observations

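Some of the bright genes outside the lists are described here, chosen after their values were seen; others of similar rank, such as EIF1, NACA and EEF2, serve translation. DKK1, a secreted antagonist of Wnt signalling, had log2 values of 13.61, 13.64 and 13.61 on medium replicates 1, 2 and 3 and ranked 49 of 19775 genes. SCD, the desaturase that makes monounsaturated fatty acids, had 13.07, 13.07 and 13.13 and ranked 80. The galectin gene LGALS3 had 13.06, 13.13 and 12.96 and ranked 81, whereas LGALS4, the intestinal galectin on the colon list, averaged 4.45 and was not above the reference level. The annexin gene ANXA2 and its partner S100A10, which form 1 complex under the membrane, averaged 13.17 and 13.31. Ornithine aminotransferase (OAT), a mitochondrial enzyme of the gut route to citrulline, averaged 13.11. The iron storage subunit FTL averaged 13.92 at rank 33, beside the transferrin receptor TFRC at rank 59.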
